A study of Mus musculus with 6 samples.

Results

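Immunoglobulin variable segments are the short gene pieces that B cells join to diversity or joining segments to make an antibody chain. The members described here are the rows of the authors' table whose symbol begins with Ighv (heavy chain), Igkv (kappa light chain) or Iglv (lambda light chain) and whose FPKM value was above 0 in at least 1 group, so they were chosen by name and by the group values themselves. That rule found 4 of the 22381 rows of the table: Ighv1-73 at the heavy chain locus and Igkv4-71, Igkv4-69 and Igkv1-115 at the kappa locus, with 0 rows at the lambda locus. No row with such a symbol was listed at 0 in both groups, and the lowest value of any member in either group was 4.92 FPKM.

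RNA was sequenced from LSK cells, bone marrow cells that are negative for mature lineage markers, positive for Sca-1 and c-Kit, and rich in blood stem cells and multipotent progenitors, taken from C57BL/6 mice aged 8 to 12 weeks. The labels give 3 samples of genotype Tgif1-/- and 3 wild-type samples, and about 200 ng of RNA. The labels give neither the animals behind each sample nor the part of Tgif1 removed, so p-values may measure technical spread alone. The table holds 1 FPKM value per group (fragments scaled by transcript length and by the mapped total of the library), so no value, spread or depth per sample can be given. Tgif1 itself was listed at 88.6 FPKM in the group labelled Tgif1 KO and 71.5 FPKM in the group labelled WT, with its test marked as failed, so each direction below is one between groups as labelled.

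Each variable segment lies in a tandem array of related copies and is transcribed weakly before recombination and strongly once joined in a B cell. The heavy chain locus is joined first in pro-B cells, the kappa locus follows in pre-B cells, and the lambda locus is usually joined last. A value per segment does not tell a transcript of the unjoined segment from one of a joined chain. Variable segments are named by locus, sequence family and position in the array, so Igkv4-71 and Igkv4-69 belong to the same kappa family and Igkv1-115 to another.

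The 2 Igkv4 members are printed first because both had lower values in Tgif1 KO than in WT by the labels, and because their likeness limits what each row measures. Up to 300 bases of the variable exon of the longest GENCODE M21 transcript (GRCm38) are given, 5′ to 3′, and capitals mark the 18 bases at which the stretches differ, together with the last base of Igkv4-71, which has no partner. The stretch of Igkv4-71 is chr6:69243163-69243462 and that of Igkv4-69 is chr6:69283794-69284092, both on the minus strand.
Igkv4-71: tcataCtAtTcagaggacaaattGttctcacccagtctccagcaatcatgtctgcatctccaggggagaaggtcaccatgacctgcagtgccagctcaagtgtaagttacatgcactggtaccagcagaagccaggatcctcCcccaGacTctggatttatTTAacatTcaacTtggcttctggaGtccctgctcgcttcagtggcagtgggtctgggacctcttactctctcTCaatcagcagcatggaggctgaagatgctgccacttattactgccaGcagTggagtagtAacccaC
Igkv4-69: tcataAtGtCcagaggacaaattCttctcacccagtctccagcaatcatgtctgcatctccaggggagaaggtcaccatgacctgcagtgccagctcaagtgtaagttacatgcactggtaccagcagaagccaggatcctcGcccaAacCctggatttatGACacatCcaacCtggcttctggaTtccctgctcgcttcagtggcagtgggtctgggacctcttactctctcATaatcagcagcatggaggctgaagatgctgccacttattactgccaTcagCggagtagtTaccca
Over their whole length the 2 transcripts were identical at 328 of 348 aligned bases (94.3%), without gaps, and shared an unbroken run of 118 bases. Both begin with a start codon and have 0 in-frame stop codons, and GENCODE lists both as functional variable segments of 2 exons, a leader and a variable exon.

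The other kappa member, Igkv1-115, is a pseudogene in GENCODE and in RefSeq, and its first 300 bases are chr6:68161415-68161714 on the plus strand of GRCm38. The stretch of its single exon is shown to set it against the Igkv4 pair, and its capitals mark TATTACTGC, one spelling of the Tyr-Tyr-Cys codons that close the framework before the joining end.
Igkv1-115: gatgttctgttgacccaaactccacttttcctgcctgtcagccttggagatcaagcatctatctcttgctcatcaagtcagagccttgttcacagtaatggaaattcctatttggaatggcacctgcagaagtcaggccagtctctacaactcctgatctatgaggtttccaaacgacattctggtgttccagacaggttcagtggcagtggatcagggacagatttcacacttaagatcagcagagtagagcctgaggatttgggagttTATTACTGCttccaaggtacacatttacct
The whole transcript had no in-frame stop codon and no start codon at its first bases, and it was identical to Igkv4-71 at 57.6% and to Igkv4-69 at 58.9% of aligned positions. TATTACTGC was searched on both strands and was also present in both Igkv4 members. It was found in 34 of the 380 GENCODE immunoglobulin variable segments (8.95%), while the spelling TATTACTGT was found in 151 of them (39.7%) and in 0 of the 4 members.

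Ighv1-73, the heavy chain member, is a pseudogene in GENCODE and a variable segment in RefSeq, and its capitals mark an in-frame stop codon at codon 108. The 300 bases shown, chr12:115790599-115790898 on the minus strand of GRCm38, are the start of its variable exon.
Ighv1-73: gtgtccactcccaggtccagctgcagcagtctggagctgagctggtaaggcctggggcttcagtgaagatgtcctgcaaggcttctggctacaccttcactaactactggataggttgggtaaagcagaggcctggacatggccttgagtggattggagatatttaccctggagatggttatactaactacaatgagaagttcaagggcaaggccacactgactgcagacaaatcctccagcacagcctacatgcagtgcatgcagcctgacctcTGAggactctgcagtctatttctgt
This sequence was matched by symbol alone, since the identifier in the table (ENSMUSG00000057610) does not carry that symbol in GENCODE M21, and the interval in the table has 183 bases against 435 for the GENCODE gene. The end of Ighv1-73 lay 2502 kb from the end of the heavy chain constant gene Ighg2c both in the table and in GRCm38.

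The positions in the table follow a mouse build that no source used here names and that differs from GRCm38. In it the members occupy short intervals. Ighv1-73 stands on chromosome 12 at positions 117028913 to 117029095. Igkv1-115 (ENSMUSG00000091800) stands on chromosome 6 at positions 68111409 to 68111750, Igkv4-71 (ENSMUSG00000073028) at 69193152 to 69193439 and Igkv4-69 (ENSMUSG00000076548) at 69233788 to 69234313. The interval of Igkv4-71 has 288 bases, the length of a GENCODE transcript that lacks the leader exon, while the 526 bases of Igkv4-69 equal its whole span of leader, intron and variable exon. The FPKM values of the 2 rows are therefore set against unlike stretches of their genes. The 2 Igkv4 rows end 40.9 kb apart, and Igkv1-115 lies 1082 kb from Igkv4-71.

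The kappa rows summed to less in the group labelled Tgif1 KO, and the heavy chain row stood at about the same value in both groups. The 3 kappa rows summed to 32.5 FPKM in the group labelled Tgif1 KO, against 81.2 FPKM in the group labelled WT, a log2 ratio of the sums of -1.32. The heavy chain row had 9.76 FPKM in the group labelled Tgif1 KO and 9.39 FPKM in the group labelled WT. The 95% interval of its log2 ratio, from -1.76 to 1.87, holds the kappa value of -1.32. No difference between the loci is therefore read from this row. These totals describe group values and were not tested, because the rule used the values themselves. In bulk RNA, fewer cells of a type and less RNA per cell cannot be told apart.

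Igkv4-71 was the highest member in both groups. It stood at 16.5 FPKM in the group labelled Tgif1 KO and at 57.8 FPKM in the group labelled WT, a log2 ratio of -1.81. The model error of that ratio, the standard error that follows from the deposited test statistic, was 0.54. Its 95% interval ran from -2.87 to -0.75. Among the 17688 rows listed above 0 in a group, its value exceeded 63.7% of rows in the group labelled Tgif1 KO and 86.0% in the group labelled WT. It made up 50.7% of the kappa sum in the group labelled Tgif1 KO and 71.2% in the group labelled WT, and without it the kappa rows summed to 16.0 and 23.4 FPKM, a log2 ratio of -0.55.

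Igkv4-69 had lower values than its relative. It stood at 8.15 FPKM in the group labelled Tgif1 KO and 18.5 FPKM in the group labelled WT, a log2 ratio of -1.18 (model error 0.59). Its 95% interval ran from -2.34 to -0.03. The ratio of Igkv4-71 to Igkv4-69 was 2.02 in the group labelled Tgif1 KO and 3.12 in the group labelled WT.

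The remaining members, 1 at each locus, had higher values in the group labelled Tgif1 KO. Igkv1-115 stood at 7.88 FPKM in the group labelled Tgif1 KO and 4.92 FPKM in the group labelled WT, a log2 ratio of 0.68 (model error 0.69) and a 95% interval from -0.68 to 2.04. For Ighv1-73 the log2 ratio was 0.05 (model error 0.92), and its 95% interval, from -1.76 to 1.87, was the widest of the 4. In the order of levels, the group labelled Tgif1 KO had Igkv4-71, Ighv1-73, Igkv4-69 and Igkv1-115, while the group labelled WT had Igkv4-71, Igkv4-69, Ighv1-73 and Igkv1-115. With no values of single samples, no neighbours in either order can be said to differ.

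**Figure D1:**
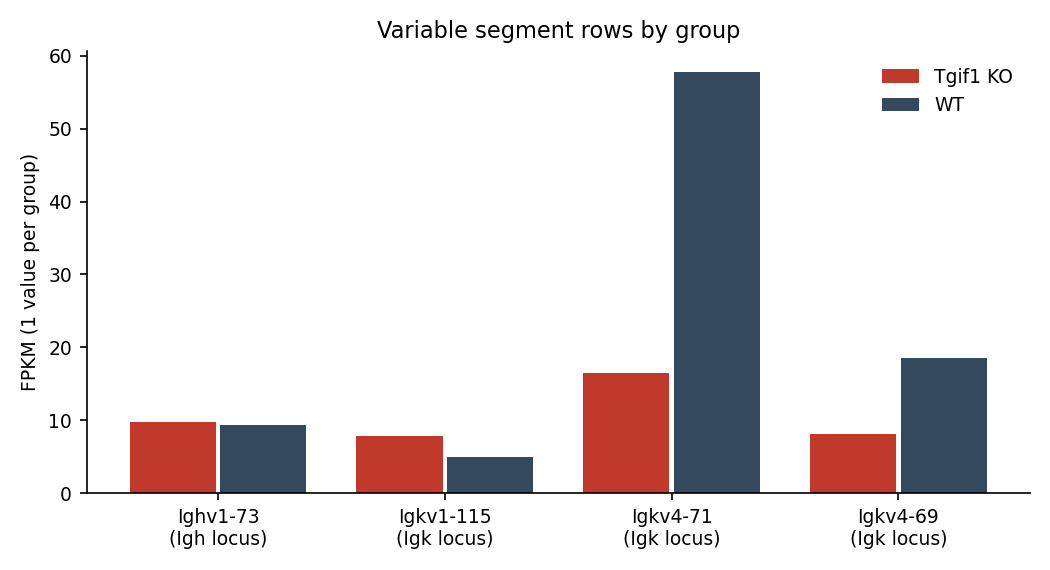
FPKM of the 4 variable segment rows (vertical axis, linear from 0), with 1 bar for the group labelled Tgif1 KO at the left of each pair and 1 for the group labelled WT at the right; no error bars can be drawn because the table has 1 value per group. Igkv4-71 stands at 16.5 FPKM in the group labelled Tgif1 KO and 57.8 FPKM in the group labelled WT, while Ighv1-73 stands at 9.76 and 9.39 FPKM.

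In the authors' deposited table all 4 rows are marked as tested by Cuffdiff, and 0 of 4 had a q at or under 0.05, where 0.662% of the 10730 tested rows did (0.289% with the higher and 0.373% with the lower value in Tgif1 KO). Igkv4-71 had p = 0.000818 and q = 0.0934 in the authors' deposited table, and Igkv4-69 had p = 0.0443 and q = 0.878. Igkv1-115 had p = 0.327 and Ighv1-73 had p = 0.953 in the authors' deposited table, with a q of 1.00 for both. At an unadjusted p under 0.05 there were 2 of 4, both lower in the group labelled Tgif1 KO and both at least 2-fold lower, against 3.55% of tested rows at that p and lower (1.85% higher, 5.41% in either direction) and 2.78% at least 2-fold lower. Since the values of this same contrast chose the members, nothing is read from these shares. With each error set to at least the median of rows at like expression, the adjusted p of Igkv4-71 was 0.265 and that of each other member 1.00, and 0 of 4 were called.

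Short rows as a class had larger model errors, although their FPKM values were higher. Of 478 rows whose interval was at most 600 bases, 312 were listed above 0 and 275 were tested by Cuffdiff, of which 0 were called, 0 were called with the raised errors and 5 had an unadjusted p under 0.05. The median model error was 0.33 for short tested rows and 0.26 for all tested rows, and all 4 members lay above both, from 0.54 to 0.92. The median of each row's higher FPKM was 64.1 for short tested rows and 11.5 for all tested rows. The median absolute log2 ratio was smaller for short tested rows, at 0.08, than for all tested rows, at 0.13, while 6.34% of short tested rows and 4.10% of all tested rows lay past 2-fold in either direction.

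The members share much of their sequence with segments that are not analysed here. GENCODE M21 lists 380 immunoglobulin variable segments, pseudogenes included, of which 7 have an identifier in the table. Among these 7 are the 3 kappa members, while the other 4 stand under symbols outside the rule and were listed at 0 in both groups. One of them, Gm11145, is the only other row of the table lying between the outermost kappa members.

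Igkv4-71 was at least 90% identical to 18 of the 175 segments aligned with it over at least 200 columns, and its nearest relative was Igkv4-55 at 95.7%. Igkv4-69 was also at least 90% identical to 18 segments, the nearest being Igkv4-68 at 95.4%. Within the Igkv4 family the median identity was 90.8% for Igkv4-71 and 91.2% for Igkv4-69, over 32 other segments each. Ighv1-73 was 97.2% identical to Ighv1-63, with a median of 84.4% over 91 segments of its family. Igkv1-115 stood furthest from its kin, with no segment at 90% or more, Igkv1-117 nearest at 87.4% and a family median of 80.5%.

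**Figure D2:**
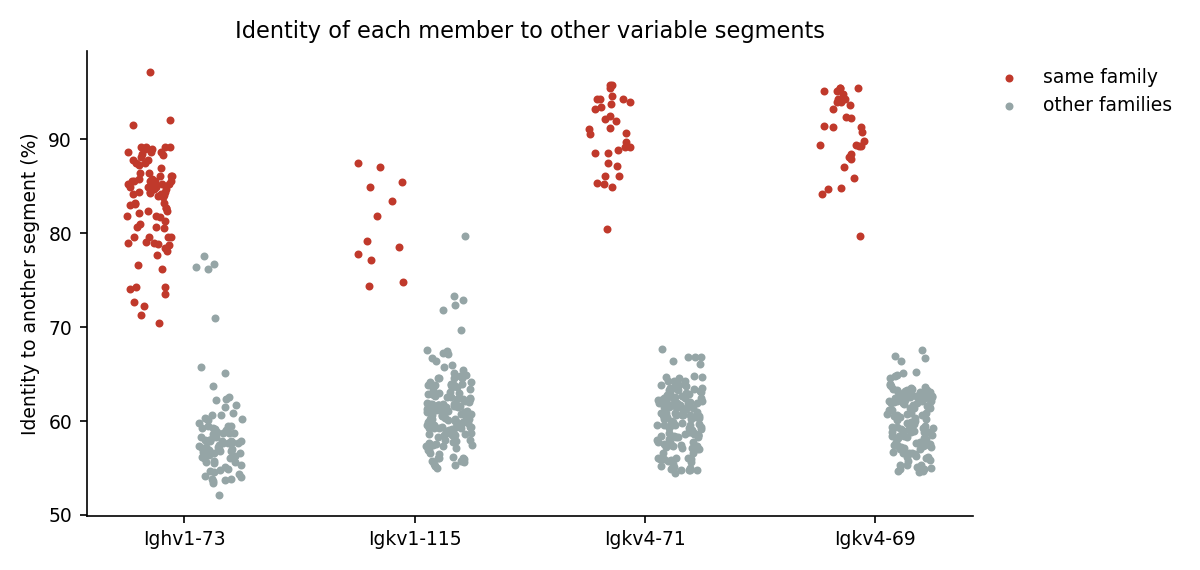
Nucleotide identity (percent, vertical axis) of each member to the other GENCODE M21 immunoglobulin variable segments aligned over at least 200 columns, with segments of the same family in red at the left of each member and those of other families in grey at the right; points are spread sideways for legibility. The family medians are 90.8% for Igkv4-71 and 91.2% for Igkv4-69, against 84.4% for Ighv1-73 and 80.5% for Igkv1-115.

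Windows of fixed length were cut from each member's longest transcript and looked up in the transcripts of every other GENCODE gene on both strands. Those transcripts have 352 bases for Igkv4-71 and for Ighv1-73, against row intervals of 288 and 183 bases. The shares therefore do not describe exactly the stretches that these rows cover. At 50 bases, 42.9% of the windows of Igkv4-71 also occurred in another gene, as did 28.1% of those of Igkv4-69, 31.4% of those of Ighv1-73 and 15.8% of those of Igkv1-115. The shared windows of Igkv4-71 fell in 22 other genes, all 22 immunoglobulin variable segments and Igkv4-69 among them. At 75 bases the shares were 20.9% for Igkv4-71, 16.1% for Igkv4-69, 13.3% for Ighv1-73 and 6.58% for Igkv1-115. At 100 bases the shared windows were 33 of 253 for Igkv4-71, 19 of 249 for Igkv4-69, 3 of 253 for Ighv1-73 and 0 of 203 for Igkv1-115. The read length and the treatment of reads with several matches are not given in the sources used here, so how reads were split between Igkv4-71, Igkv4-69 and their relatives was not tested. Because FPKM divides by length and the 2 rows have unlike lengths, the sum of both Igkv4 rows also moves with such a split. That sum was 24.6 FPKM in the group labelled Tgif1 KO and 76.3 FPKM in the group labelled WT.

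**Figure D3:**
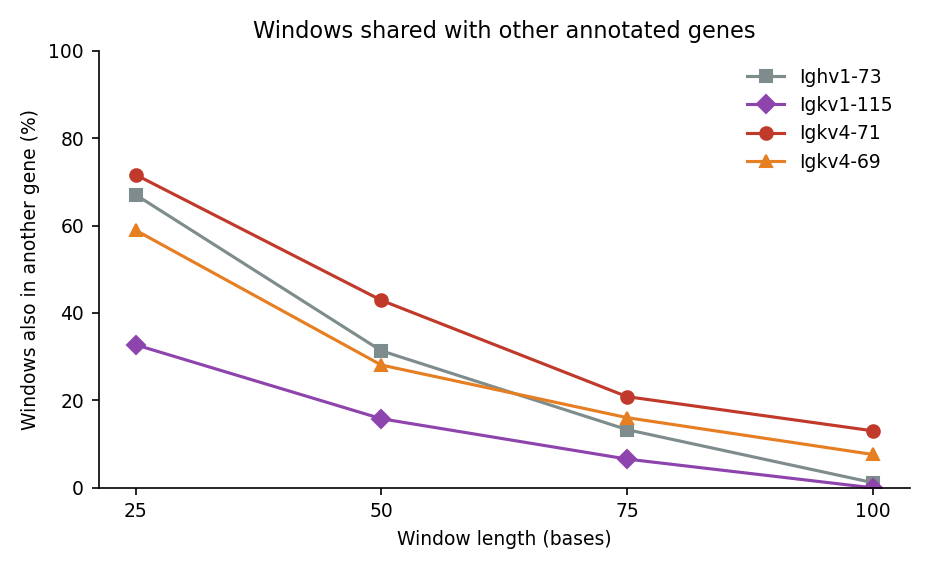
Share of sequence windows of each member that also occur in a transcript of another GENCODE M21 gene (percent, vertical axis) against window length in bases (horizontal axis), with 1 line per member. At 50 bases the share is 42.9% for Igkv4-71 and 15.8% for Igkv1-115.

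Constant genes, which encode the part of the antibody chain that the variable segment is joined to, were few in the table and none was called. Iglc3, a lambda constant gene, stood at 4.93 FPKM in the group labelled Tgif1 KO and 0.764 FPKM in the group labelled WT, a log2 ratio of 2.69 (model error 0.75). The authors' deposited table gives it q = 0.0526, and its adjusted p with the raised errors was 0.136. Iglc2, another lambda constant gene, stood at 10.6 and 4.80 FPKM in the groups labelled Tgif1 KO and WT. The gamma heavy chain gene Ighg2c stood at 14.7 and 9.62 FPKM in the same groups. Gm900, which GENCODE names the epsilon gene Ighe, had too few reads to test, with the lower value in the group labelled Tgif1 KO, at 0.137 FPKM, against 0.161 FPKM in the group labelled WT. Of the 4 constant genes found, 3 were tested by Cuffdiff, all 3 with higher values in the group labelled Tgif1 KO. None of the 3 was called and 1 had an unadjusted p under 0.05, where 1.85% of all tested rows were higher at that p. The median log2 ratio of the 3 was 1.14, against -0.03 over all tested rows.

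The lambda constant rows and the kappa variable rows ran opposite ways as totals, in data where no row of either kind was called. Both lambda constant rows summed to 15.5 FPKM in the group labelled Tgif1 KO and 5.56 FPKM in the group labelled WT, beside 32.5 and 81.2 FPKM for the kappa variable rows. The difference between these 2 changes was not tested. The GENCODE transcripts of Iglc2 and Iglc3, taken by symbol, were 94.9% identical, so reads shared between them leave each value uncertain.

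The 4 genes of the surrogate light chain list were all lower in value where the label is Tgif1 KO. Products of Igll1, Vpreb1 and Vpreb2 stand in for a light chain on pre-B cells before kappa or lambda is joined. Igll1 (lambda5) was called lower, at 12.7 FPKM in the group labelled Tgif1 KO and 40.9 FPKM in the group labelled WT, with a log2 ratio of -1.69 (model error 0.17) in the Cuffdiff test. Vpreb1 stood at 2.63 and 5.45 FPKM, Vpreb2 at 0.624 and 1.44 FPKM, and Vpreb3 at 4.68 and 13.4 FPKM in the groups labelled Tgif1 KO and WT. Of the 4 tested, 1 was called and 3 had an unadjusted p under 0.05, all lower. Over all tested rows, 0.373% were called lower and 3.55% were lower at that p. The list median log2 ratio was -1.36, against -0.03 over all tested rows. This list and those below were chosen with earlier results of these data known, so their counts are description alone.

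Of 14 genes of B cell receptor signalling, 8 were tested. Among them 3 were called lower and 0 higher in the group labelled Tgif1 KO, against 0.373% and 0.289% of all tested rows. The median log2 ratio was -0.77, against -0.03 over all tested rows. The called genes were the receptor chain Cd79a at 5.16 and 13.7 FPKM, the adaptor Blnk at 4.24 and 11.8 FPKM and the inhibitory lectin Siglecg at 1.96 and 5.30 FPKM in the groups labelled Tgif1 KO and WT. The highest gene of the list, the phosphatase gene Ptpn6, stood at 440 and 414 FPKM and its test failed. With the raised errors the adjusted p of Siglecg was 0.0844, which ended its call.

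Of 16 B lineage factors, 12 were tested. Among them 2 were called lower and 0 higher in the group labelled Tgif1 KO, against 0.373% and 0.289% of all tested rows. The median log2 ratio was -0.31, against -0.03 over all tested rows. Ebf1, a factor needed to enter the B lineage, fell to 3.13 FPKM in the group labelled Tgif1 KO, against 13.7 FPKM in the group labelled WT. Lef1, a Wnt pathway factor of pro-B cells, fell to 1.41 FPKM, against 3.02 FPKM, and had an adjusted p of 1.00 with the raised errors. Ikzf1, which encodes Ikaros, stood at 236 and 295 FPKM with a failed test, and Bcl11a at 146 and 164 FPKM in the groups labelled Tgif1 KO and WT.

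The recombination list, the enzymes that cut and join variable segments, held no called gene among 8 tested of 12 by Cuffdiff, and 1 lower at an unadjusted p under 0.05. That gene was Dntt, which adds bases at the joints, at 302 FPKM in the group labelled Tgif1 KO and 437 FPKM in the group labelled WT. Hmgb2, a cofactor of the cutting step, stood at 169 and 166 FPKM, and the tests of Hmgb1, with 494 and 508 FPKM, and of Xrcc6, with 131 and 130 FPKM, failed. Rag1 and Rag2, which make the cut, share an interval and both tests failed. They were named after their values were seen, at 1.08 and 2.11 FPKM for Rag1 and at 11.2 and 19.2 FPKM for Rag2 in the groups labelled Tgif1 KO and WT. The list median log2 ratio was -0.11.

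Genes for the folding of the receptor loci held 0 calls by Cuffdiff among 5 tested of 6, 0 at an unadjusted p under 0.05, and 0 with the raised errors, with a median log2 ratio of 0.02. The cohesin subunit genes Smc1a and Smc3 had 206 and 208 FPKM (Smc1a) and 150 and 152 FPKM (Smc3) in the groups labelled Tgif1 KO and WT. The Polycomb methyltransferase gene Ezh2 had 200 and 197 FPKM and the insulator factor gene Ctcf 122 and 116 FPKM. The plasma cell list held 0 calls by Cuffdiff among 7 tested of 8, 0 with the raised errors and 2 lower at an unadjusted p under 0.05, with a median log2 ratio of 0.07. In it, Xbp1 stood at 82.7 and 77.6 FPKM, the antibody joining chain gene Igj at 34.8 and 33.0 FPKM, the surface proteoglycan gene Sdc1 at 2.86 and 4.03 FPKM and 2010001M09Rik, an older symbol of Mzb1, at 1.07 and 2.47 FPKM in the groups labelled Tgif1 KO and WT.

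**Figure D4:**
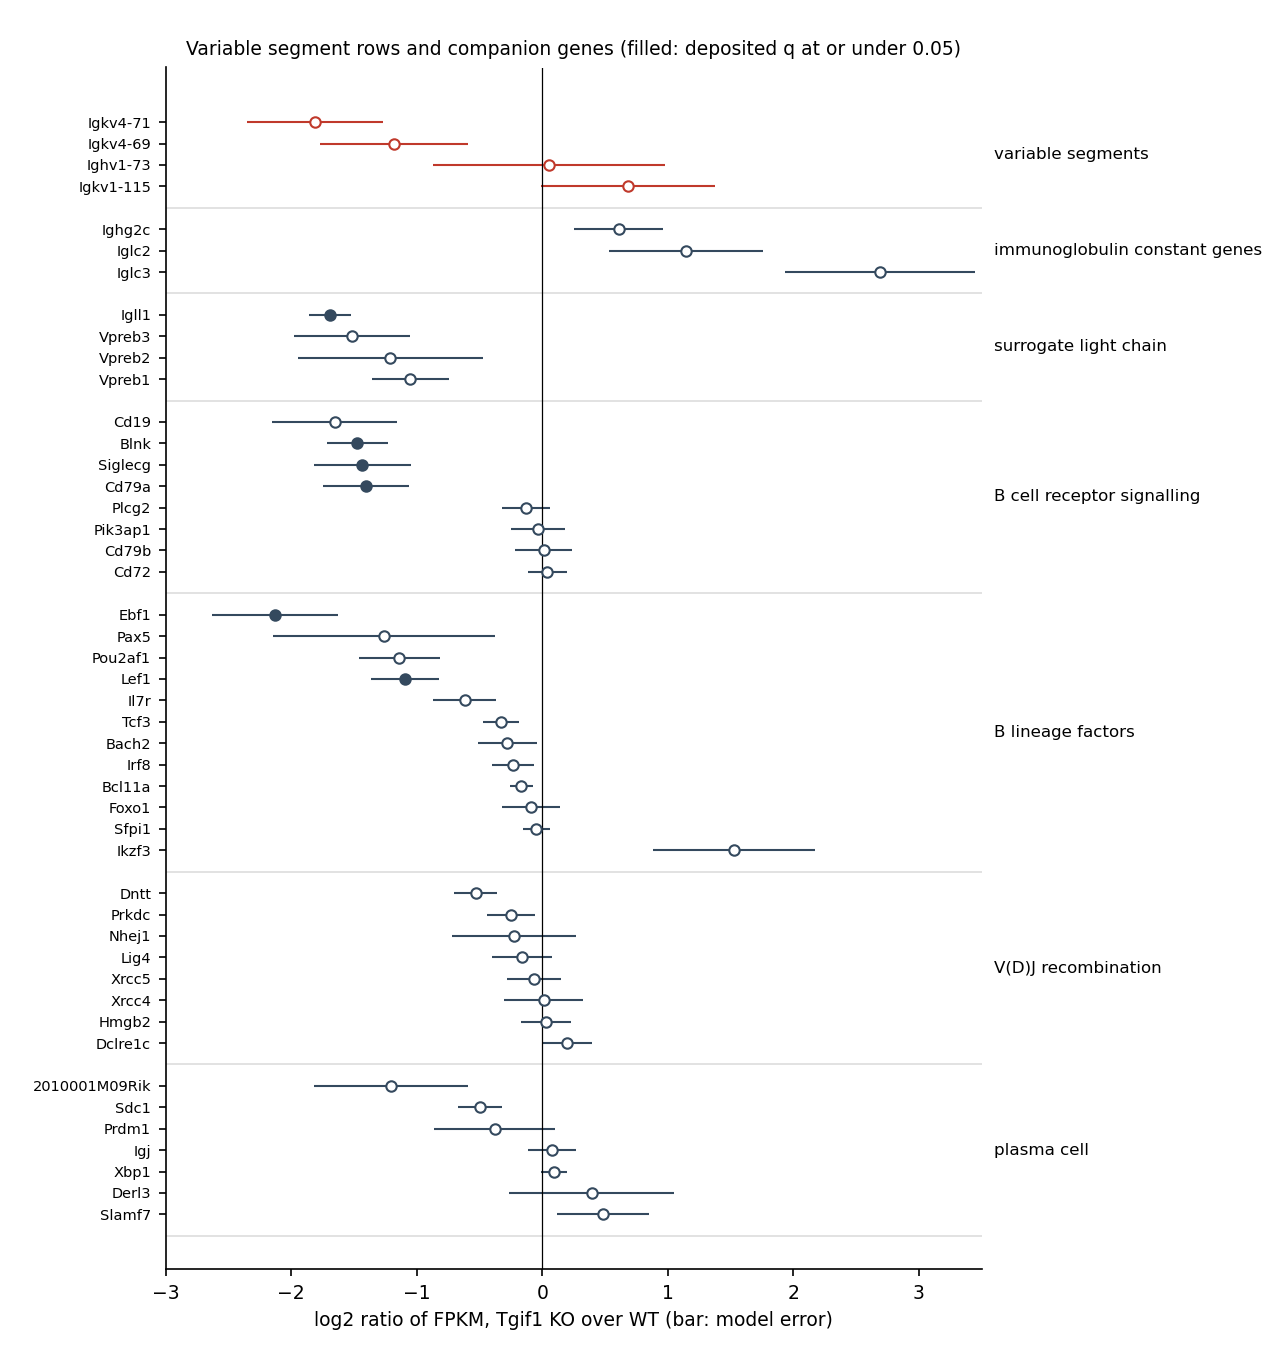
Log2 ratio of FPKM, the group labelled Tgif1 KO over the group labelled WT (horizontal axis), for the 4 variable segment rows (red) and tested genes of 6 companion lists (blue); bars are 1 model error each way and filled points have a deposited q at or under 0.05. Igkv4-71 at -1.81 and Igkv4-69 at -1.18 lie left of 0, while Iglc3 at 2.69 and Iglc2 at 1.14 lie right of it, and none of these 4 points is filled.

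Markers of several blood cell types were read beside these values. All 8 B lineage markers were listed above 0, 4 with higher and 4 with lower values in the group labelled Tgif1 KO. Their FPKM summed to 39.1 in that group and 61.8 in the group labelled WT. Without Cd79b, the highest of the 8, the sums were 11.3 and 34.2 FPKM in the groups labelled Tgif1 KO and WT. Of the 5 tested by Cuffdiff, 2 (Ebf1 and Cd79a) were called and 3 had an unadjusted p under 0.05. All 3 were lower under the Tgif1 KO label. Those with higher values were Cd79b, at a log2 ratio of 0.01, and Blk, Ms4a1 and Cd22, which had too few reads to test. The 6 plasma cell markers found by symbol summed to 122 and 117 FPKM in the groups labelled Tgif1 KO and WT. Of these, 2 had higher and 4 lower values under the Tgif1 KO label, and without Xbp1 the sums were 39.4 and 39.6 FPKM. Mzb1, listed under its older symbol with a lower value under the Tgif1 KO label, is not in these sums. The 7 T cell markers, 4 with higher and 3 with lower values, summed to 28.5 and 33.4 FPKM in the same groups. Without Lck they summed to 5.79 and 5.65 FPKM. For the neutrophil markers, 7 of 7 values were lower under the Tgif1 KO label, with sums of 3357 and 3720 FPKM in the groups labelled Tgif1 KO and WT. Mpo made up most of these sums, and without it they were 302 and 431 FPKM. Of the 5 neutrophil markers tested by Cuffdiff, 0 were called and 4 had an unadjusted p under 0.05. These 4 were the granule genes Ltf (log2 ratio -1.91, p = 0.00136), Ngp (-1.24, p = 0.00654) and Camp (-0.85, p = 0.0424) and the calcium-binding protein gene S100a8 (-0.95, p = 0.0122) in the authors' deposited table, beside -1.81 and -1.18 for Igkv4-71 and Igkv4-69. The test of S100a9, with a log2 ratio of -1.05, failed. No marker of these 4 lists was at 0 in both groups, and Cd3g was listed at 0 in the group labelled Tgif1 KO and at 0.677 FPKM in the group labelled WT. Of the LSK markers, Kit stood at 193 and 202 FPKM and Ly6a, which encodes Sca-1, at 120 and 88.9 FPKM in the groups labelled Tgif1 KO and WT. The sums that follow are for the groups labelled Tgif1 KO and WT. The 4 NK cell markers, 3 higher and 1 lower under the Tgif1 KO label, summed to 321 and 317 FPKM. The 5 erythroid markers, 4 higher and 1 lower, summed to 41.4 and 38.3 FPKM. The 4 macrophage markers found, 2 higher and 2 lower, summed to 49.96 and 46.08 FPKM, or 12.5 and 13.8 FPKM without Cd68. No tested NK cell, erythroid or macrophage marker was called or had an unadjusted p under 0.05 by Cuffdiff. The part of these cell types in the variable segment values was not tested.

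T cell receptor variable segments offered little to set beside the members. The table used here has 0 rows whose symbol begins with Trav, Trbv, Trgv or Trdv. B230359F08Rik, which GENCODE classes as a T cell receptor variable segment and which was named after its value was seen, stood at 2.01 FPKM in the group labelled Tgif1 KO and 2.47 FPKM in the group labelled WT.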

How the data were processed

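The authors' deposited table gives FPKM for each group, computed by the authors; the submitters' processing notes name TopHat and Cuffdiff, without versions, and hg19, a human build, although the identifiers are mouse. Per the file headers, the first value column is Tgif1 KO and the second WT. Beside these stand the authors' log2 fold change and test statistic (scores, with WT on top and infinite values written as a very large number), p-value and q-value. The fold change was turned round here. Starts are printed counting from 1.

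The deposited p-values matched the normal two-sided value of the statistic in all 10683 tested rows with a finite ratio, and the q-values a Benjamini-Hochberg adjustment in all 10730 tested rows (within 0.001). The log2 ratio divided by the statistic was used as the model error. It is an error of the authors' model, not a spread between samples. The raised errors set it to at least the median of its bin among 20 expression bins.

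A row was called at status tested and q at or under 0.05. The members and lists were chosen with earlier results of these data known. Members were all named; for each list, called genes were named first and then the highest by FPKM, up to 4. Sequences are from GENCODE M21 and were matched by identifier for 3 members and by symbol for 1. Alignments were global with free end gaps (match 1, mismatch -1, gap opening -3, extension -1). Python 3.11.15, pandas 2.3.3, numpy 2.4.6, scipy 1.17.1, Biopython 1.88 and matplotlib 3.10.9 were used. The calling step was run on data simulated with these same model errors, which cannot check the errors themselves. Alternatives were other q thresholds, minimum FPKM values, pseudocounts of 0.1 and 1, centring, row status, length weighting, fewer rows and functional segments only. Added after seeing the data were the raised errors and rows that GENCODE names variable segments. Also chosen after the values were seen, and used as description alone, were the limit of 600 bases for short rows, the sum of both Igkv4 rows, the window lengths, the identity measures, the sequences shown and the motif, of which only the spellings TATTACTGT and TATTACTGC were searched.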

Additional observations from a re-analysis of the deposited data

How the results depend on the processing

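Of the alternatives run for counts and sums, 182 kept the value or stayed within 1.5 times of a count. The other 11 moved, none with a change of sign. Many of the 182 could not move, so their number is no measure of stability. The lambda counts were 0 throughout, and centring leaves each q as deposited. The limit of 1.5 times also kept receptor signalling calls of 4 and 2 against 3, and B lineage factor calls of 3 against 2. The kappa log2 ratio of sums of -1.32 was -0.55 without Igkv4-71 and -1.30 with FPKM weighted by annotated length; the ratio over all members of -1.10 was -0.55 without the highest row of each locus. With functional segments only, the counts of kappa rows and of all rows with a higher value in the group labelled Tgif1 KO were 0 and 0, against 1 and 2, since the pseudogene Igkv1-115 and the unmatched Ighv1-73 drop out. At q at or under 0.1, 1 member (Igkv4-71), 1 constant gene and 2 surrogate light chain genes were called, against 0, 0 and 1. At q at or under 0.01, receptor signalling had 1 call lower, against 3, and the B lineage factors 1, against 2; the B lineage list also had 1 with the raised errors. For single members, centring on the median of tested rows kept the direction of all 4 log2 ratios. A pseudocount cannot turn a direction, none of these settings gives a q of its own, and the raised errors can end a call but not add one. The minimum FPKM values and the row status could not change a member's value, since every member was tested and lay above both minima.

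No paired analysis was possible because the table has no values of single samples and the groups share no replicate numbers. No replicate was left out, for the same reason. Leaving out the 5 highest rows of each locus left no row. Depth per sample is unknown, so no counting interval can be given.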
